A study of Homo sapiens with 8 samples.

Results

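The regions described are a pair of stretches of the human genome with many closely spaced called peaks of the tumour suppressor p53. On build hg19 they are the 7q22 window, chromosome 7 from 101900000 to 102400000, and the 16p11 window, chromosome 16 from 30600000 to 31200000. The members are all peaks of the 4 deposited peak lists that share at least 1 bp with a window, 719 of 97582 peaks: 316 in the 7q22 window and 403 in the 16p11 window. Merged over the 4 lists, they form 409 of 63890 sites, 180 at 7q22 and 229 at 16p11. The windows were chosen from peak positions in these same lists, so their density is a description and carries no test.

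All libraries came from 293T, an established line derived from human embryonic kidney. It expresses SV40 large T antigen, which binds p53, so this holds for treated and control cells alike. Treated cells (Dox) had doxorubicin at 0.5 µg/ml in the medium, and control cells (PBS) 20 µl of phosphate-buffered saline, for 24 h before chromatin immunoprecipitation with a p53 antibody (clone 1C12) and sequencing. Each condition has 2 ChIP libraries, replicate 1 from passage 3 and replicate 2 from passage 5. Nothing in the labels says that the libraries of a condition came from separately handled cultures beyond the passage, so a p-value measures only the spread between these libraries. Whole lists held 46658, 16642, 11304 and 22978 peaks for Dox 1, Dox 2, PBS 1 and PBS 2, each holding peaks of p under 0.05. Read depth is unknown, and with 2 libraries against 2 no two-sided exact permutation p can fall below 0.333.

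p53 is a transcription factor that binds DNA as a tetramer, at a pair of half-sites, and doxorubicin, a topoisomerase poison that breaks DNA, is widely used to activate it. The 7q22 window is named for POLR2J, which encodes a subunit of RNA polymerase II, and for the duplicated copies of that gene, POLR2J2 and POLR2J3. Copies of other families lie among them, such as SPDYE2 and SPDYE2B, whose proteins belong to the Speedy family of cell cycle regulators. The 16p11 window is named for SRCAP, a chromatin remodeller that loads the histone variant H2A.Z, and SETD1A, a methyltransferase of histone H3 lysine 4. RefSeq's gene order on GRCh38.p14 lists 18 protein-coding genes from CUX1 to FAM185A, the stretch that holds the POLR2J copies. KAT8, a histone acetyltransferase, is a further gene of the 16p11 block. That build differs from the build of the peaks, so no peak was assigned to a gene, exon or promoter.

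Sequences just before the gene start are shown for genes of each block, to show how unlike they are in base composition and how alike a duplicated pair can be. They are the 250 bases before the start, 5′ to 3′ on the gene's strand, from RefSeq on GRCh38.p14. The stretches are chr7:102671664-102671913 on the minus strand for POLR2J2, and on the plus strand chr7:102550976-102551225 for SPDYE2, chr16:30698921-30699170 for SRCAP and chr16:30957504-30957753 for SETD1A. Capitals mark GGGCGG or its complement CCGCCC (a GC box), or a match to the p53 consensus half-site, both searched on both strands.
POLR2J2: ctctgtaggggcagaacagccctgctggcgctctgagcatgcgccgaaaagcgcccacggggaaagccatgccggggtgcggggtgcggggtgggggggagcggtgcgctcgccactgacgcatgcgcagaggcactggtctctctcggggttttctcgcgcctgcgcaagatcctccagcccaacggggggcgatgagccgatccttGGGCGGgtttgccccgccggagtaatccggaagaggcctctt
SPDYE2: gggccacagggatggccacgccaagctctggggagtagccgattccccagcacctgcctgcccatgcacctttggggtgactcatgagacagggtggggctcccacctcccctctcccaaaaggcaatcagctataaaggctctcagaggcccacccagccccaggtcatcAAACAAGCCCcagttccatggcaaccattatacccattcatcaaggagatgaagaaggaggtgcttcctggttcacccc
SRCAP: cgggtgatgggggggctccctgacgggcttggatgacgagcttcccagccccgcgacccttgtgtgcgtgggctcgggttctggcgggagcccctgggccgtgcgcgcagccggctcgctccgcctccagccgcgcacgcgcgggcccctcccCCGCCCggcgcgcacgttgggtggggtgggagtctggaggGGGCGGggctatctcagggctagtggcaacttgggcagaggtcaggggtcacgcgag
SETD1A: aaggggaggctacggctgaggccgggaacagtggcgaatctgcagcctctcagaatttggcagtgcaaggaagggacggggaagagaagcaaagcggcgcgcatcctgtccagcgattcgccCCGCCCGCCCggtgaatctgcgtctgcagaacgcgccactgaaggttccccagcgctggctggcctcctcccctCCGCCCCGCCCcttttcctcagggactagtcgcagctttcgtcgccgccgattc
The GC box was found at 1 position for POLR2J2, 2 for SRCAP and 4 for SETD1A, some of the latter overlapping. Of the 35116 stretches of the same length in the table, 42.6% hold it. The p53 half-site was matched at 1 position for SPDYE2 and at none for POLR2J2, SRCAP or SETD1A, against 5.57% of all stretches with a match. Neither CCAAT (in 32.0% of all) nor a pair of CATG cores spaced as in the p53 consensus (in 0.296%), also searched on both strands, occurred in any of the 4. GC content was 68.4% for POLR2J2, 74.8% for SRCAP and 65.2% for SETD1A, against 58.8% for SPDYE2 and a median of 58% over the table. The SPDYE2 stretch holds 2 CpG, against 24 for POLR2J2, 27 for SRCAP and 23 for SETD1A and a median of 11 over the table. The entry of SPDYE2B was identical to the SPDYE2 entry shown at 300 of 300 bases, 250 before the start and the rest after it. The SPDYE2 pair was added after its values had been seen. POLR2J, POLR2J3 and KAT8 are named only.

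In the 7q22 window the 4 libraries held 120 peaks in Dox 1, 78 in Dox 2, 47 in PBS 1 and 71 in PBS 2. These made up 0.257%, 0.469%, 0.416% and 0.309% of the respective lists. Among tiles of 500 kb laid end to end from the window, it ranked 2, 2, 4 and 3 by peak number in the same order of libraries, against a median of 5, 3, 2 and 3 peaks per tile that held any. The 16p11 window held 145, 93, 61 and 104 peaks, or 0.311%, 0.559%, 0.540% and 0.453% of the lists. Among tiles of 600 kb it ranked 3, 1, 1 and 1. Dox 1, the longest list, had the most peaks in each window and the smallest share of its list there.

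The windows differ at their edges. The 100 kb before the 7q22 window held 4 peaks over the 4 libraries, all in Dox 1, and the 100 kb after it held 0. The first and the last 100 kb inside held 15 and 18. The 7q22 block is thus bounded by stretches with few or no peaks. At 16p11 the 100 kb before the window held 64 peaks and the 100 kb after it 39, against 60 and 32 in the first and last 100 kb inside. By library, the 100 kb before the 16p11 window held 29, 15, 5 and 15 peaks in Dox 1, Dox 2, PBS 1 and PBS 2, against 16, 13, 10 and 21 in the first 100 kb inside. The 100 kb after it held 16, 7, 7 and 9, against 9, 6, 5 and 12 in the last 100 kb inside. Both Dox libraries thus had more peaks outside either edge than inside it, while both PBS libraries had fewer before the window and PBS 2 also after it.

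**Figure D1:**
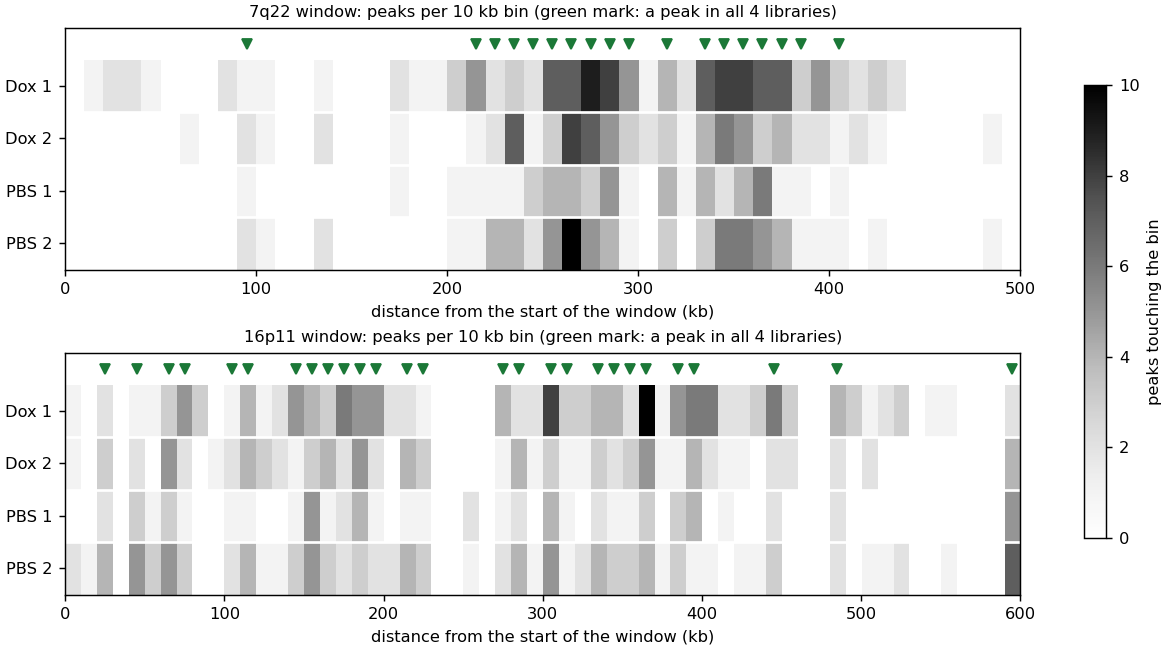
Number of peaks touching each 10 kb bin (grey scale) in the 4 libraries (rows) by distance from the start of each window in kb; a green mark stands over each bin with a peak in all 4 libraries. At 7q22 the marks form 5 runs, of 9 and 6 bins and 3 single bins, and at 16p11 13 runs, the longest of 6 bins.

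At 10 kb resolution the 7q22 peaks form a compact block. Of its 50 bins 37 held a peak in at least 1 library, and an unbroken stretch of 27 occupied bins ran from 102.07 to 102.34 Mb. That stretch is 54% of the window's length and held 109 of 120 peaks of Dox 1, 71 of 78 of Dox 2, 46 of 47 of PBS 1 and 65 of 71 of PBS 2. Within it, the bins with a peak in all 4 libraries made a run of 9 from 102.11 to 102.2 Mb and a run of 6 from 102.23 to 102.29 Mb, with single such bins at 102.21 and 102.3 Mb. A further bin of this kind stood apart, from 101.99 to 102.0 Mb. The bin from 102.16 to 102.17 Mb had the most peaks, 7 in Dox 1, 8 in Dox 2, 4 in PBS 1 and 10 in PBS 2. Its neighbour from 102.17 Mb had 9, 7, 3 and 5. In the second run the bin from 102.25 Mb had 8, 5, 4 and 6. The longest stretch with no peak in any library was 40 kb, from 102.34 to 102.38 Mb, at the far side of the block.

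The 16p11 peaks are spread along the window. Of its 60 bins 50 held a peak, and the longest unbroken stretches were 19 bins each, from 30.64 to 30.83 Mb and from 30.87 to 31.06 Mb. The first of these held 51 of 145 peaks of Dox 1, 43 of 93 of Dox 2, 25 of 61 of PBS 1 and 46 of 104 of PBS 2. Bins with a peak in all 4 libraries fell into 13 runs, the longest being 6 bins from 30.74 to 30.8 Mb and 4 bins from 30.93 to 30.97 Mb. Runs of 2 such bins began at 30.66, 30.7, 30.81, 30.87, 30.9 and 30.98 Mb, and single ones at 30.62, 30.64, 31.04, 31.08 and 31.19 Mb. The bin from 30.96 to 30.97 Mb had the most peaks, 10 in Dox 1, 5 in Dox 2, 3 in PBS 1 and 4 in PBS 2. Close to it in number was the bin from 30.9 Mb, with 8, 3, 4 and 5. No library had a peak from 31.16 to 31.19 Mb, the longest empty stretch, and the last bin after it held 2, 4, 5 and 7.

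The same bins tended to hold peaks in every library. At 7q22 18 of the 37 occupied bins (48.6%) had a peak in all 4 libraries, and at 16p11 27 of 50 (54%), against 10.9% of the 41030 occupied bins of the genome. The windows were chosen for many peaks, so these shares were not tested. Across the 50 bins of the 7q22 window, Spearman's rho of the peak numbers of a pair of libraries ran from 0.774 to 0.867 over the 6 pairs. Across the 60 bins at 16p11 it ran from 0.566 to 0.781. The lowest value at 16p11 was between Dox 1 and PBS 2 and the highest between PBS 1 and PBS 2, while at 7q22 the highest was between Dox 2 and PBS 2. The bins are the same stretches of one genome in every library, and these values are descriptions.

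Recurrence was also counted at the level of single sites. A 10 kb bin counts peaks at any of its sites, so shares of bins and of sites differ in unit and were not compared. Of the 180 sites at 7q22, 17 (9.44%) had a peak in all 4 libraries, and of the 229 at 16p11, 21 (9.17%), beside 6.01% of all 63890 sites. A further 22 and 21 sites had a peak in 3 libraries. Sites with a peak in 1 library were the largest class, 109 (60.6%) at 7q22 and 148 (64.6%) at 16p11, beside 72.5% over the series. Sites called in Dox 1 alone made up 36.1% and 33.6%, beside 48.5%. Of the PBS 1 peaks, the shortest list, 38 of 47 at 7q22 and 51 of 61 at 16p11 lay in a site shared with another library (80.9% and 83.6%), near the 81.4% of its whole list. For Dox 1 the shares were 45.8% and 46.9%, against 33.6% of its whole list.

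**Figure D2:**
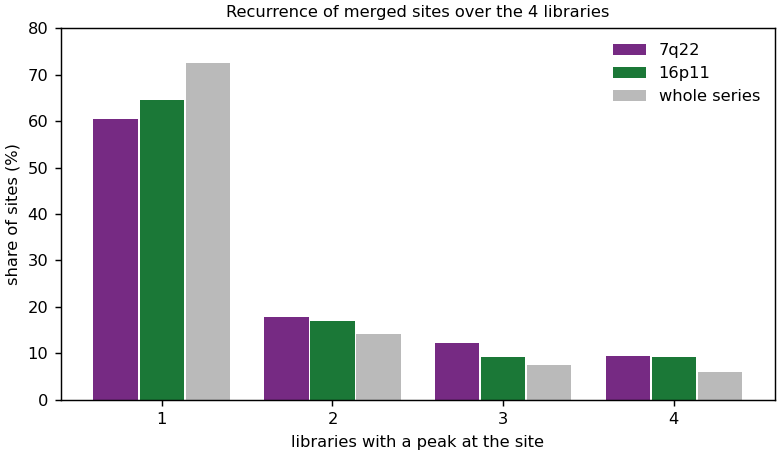
Share of merged sites (y axis, per cent) with a peak in 1, 2, 3 or 4 libraries (x axis) in the 7q22 window, the 16p11 window and the whole series. Sites in 4 libraries make up 9.44% and 9.17% in the windows and 6.01% overall.

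Summit positions of recurrent sites were set side by side over the libraries. Among sites with exactly 1 peak in each of the 4 libraries, the range of the 4 summit positions had a median of 84 bp over 12 sites at 7q22 and of 177 bp over 9 sites at 16p11. Over all 2576 such sites of the series it was 148 bp. It was at most 100 bp at 7 of the 12 sites at 7q22, 1 of the 9 at 16p11 and 35.6% over the series. These sites were also narrower at 7q22, with a median of 567 bp against 844 bp at 16p11 and 663.5 bp over the series, and the part of width in the summit range was not tested.

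Median enrichment of the window peaks lay near the middle of the lists or somewhat above it. Fold enrichment is the authors' value at the summit over the caller's local background, and its percentile was taken within each library's own list. The median percentile of the 7q22 peaks was 66.0 in Dox 1, 56.0 in Dox 2, 61.5 in PBS 1 and 51.0 in PBS 2. At 16p11 it was 56.6, 49.3, 52.9 and 44.8, and PBS 2 had the lowest median in both windows. The highest fold at 7q22 was 5.63, 6.21, 4.80 and 6.10 in the same order of libraries, and at 16p11 5.97, 6.66, 6.34 and 8.09, where the highest of the whole lists were 26.9, 22.4, 20.0 and 25.6. By p, the best peak of the 7q22 window ranked 194, 231, 398 and 378 in its list, and the best of the 16p11 window 529, 201, 166 and 169. No window peak ranked higher than 166 in any list.

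**Figure D3:**
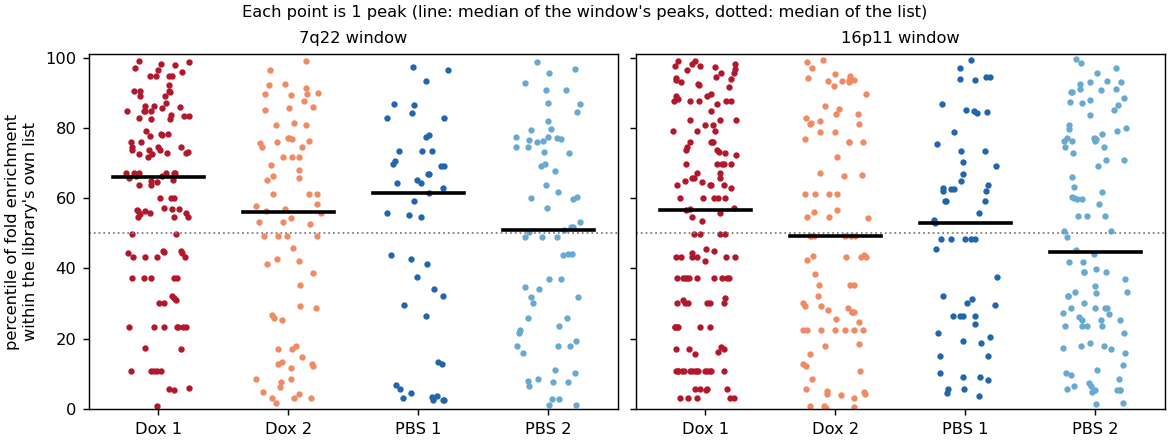
Percentile of fold enrichment within the library's own list (y axis) for each peak of the windows (points), with the median of the window's peaks as a black line and the list median as a dotted line. Points fill the whole range, and the medians run from 44.8 to 66.0.

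Few of the peaks passed a limit on the false discovery rate. At q of at most 0.05 there were 5 of 120 peaks in Dox 1 at 7q22 (4.17%, 95% Wilson interval 1.79 to 9.38), beside 3.65% of the whole list. Dox 2 had 3 of 78 (3.85%), beside 4.84%, and PBS 2 had 4 of 71 (5.63%), beside 5.84%. PBS 1 had 0 of 47, beside 2.56%, with a Wilson upper limit of 7.56%; the limit of 3 counts that a count of 0 allows is a share of 6.38%. At 16p11 the counts were 8 of 145 (5.52%), 3 of 93 (3.23%), 1 of 61 (1.64%) and 5 of 104 (4.81%) for Dox 1, Dox 2, PBS 1 and PBS 2. These shares are near those of the whole lists, and each whole-list share lies within the window's Wilson interval. The intervals cover counting error only. Peaks at 7q22 had median widths of 305.5, 287, 297 and 292 bp in the 4 libraries, against list medians of 282, 288, 281 and 281 bp. At 16p11 the medians were 335, 299, 299 and 340.5 bp, and the widest peak, in Dox 1, spanned 3207 bp.

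The leading site of the 7q22 window, on chromosome 7 from 102278590 to 102279378, had a fold of 5.11 in Dox 1, 6.21 in Dox 2, 4.80 in PBS 1 and 6.10 in PBS 2. It ranked at or above the percentile 97.4 in each list, and its q was at most 0.05 in every library but PBS 1. The site from 102164471 to 102165653 had folds of 3.30, 3.92, 4.45 and 3.95, highest in PBS 1 and lowest in Dox 1. From 102230356 to 102231475 the folds were 3.49, 3.24, 3.39 and 4.55. The site from 102212547 to 102213144 was more uneven, with 5.63, 3.32, 2.88 and 4.14 and percentiles from 65.2 in PBS 1 to 98.9 in Dox 1. It held the smallest p of the window in Dox 1 and PBS 2. Folds of 5.57, 2.81, 3.01 and 3.16 at the site from 102232231 to 102233578 gave Dox 1 alone a high value. The other leading sites, from 102150952, 102256764 and 102257434, had folds between 2.52 and 3.70. Their q was above 0.05 in each library, and their lowest percentiles were 42.5, 43.7 and 57.0. Besides the sites from 102212547 and 102278590, 1 more site had q of at most 0.05 in at least 2 libraries. It lay from 102179645 to 102180215, with 4.50, 2.71, 3.29 and 4.81. Such sites made up 3 of 180 at 7q22 (1.67%) and 4 of 229 at 16p11 (1.75%), beside 1.47% of all sites.

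The leading site of the 16p11 window, from 31191146 to 31192217, had folds of 4.69 in Dox 1, 6.66 in Dox 2, 6.34 in PBS 1 and 8.09 in PBS 2, and q of at most 0.05 in all 4. It lay in the last bin and held the smallest p of the window in Dox 2, PBS 1 and PBS 2. The site from 30968260 to 30969295 followed, with 3.89, 5.73, 4.65 and 4.56 and percentiles of at least 93.8. Folds at the site from 30785816 to 30787376 lay close together, at 4.39, 4.02, 4.08 and 4.19, with q above 0.05 in each library. The site from 30709005 to 30710305 had 4.38, 3.46, 2.88 and 5.62, and that from 30771472 to 30774219, 2748 bp wide, had 4.77, 3.95, 2.73 and 4.97. PBS 1 was the lowest of the 4 at both. From 30995945 to 30996967 the folds were 4.63, 3.90, 2.92 and 3.93. The sites from 30621625 and 30661609 had folds between 2.65 and 3.37, with q above 0.05 in each library. The widest merged site, from 30787404 to 30790677, spanned 3274 bp, was singled out for its width after its values were seen, and had 5.05, 2.74, 3.29 and 2.62.

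**Figure D4:**
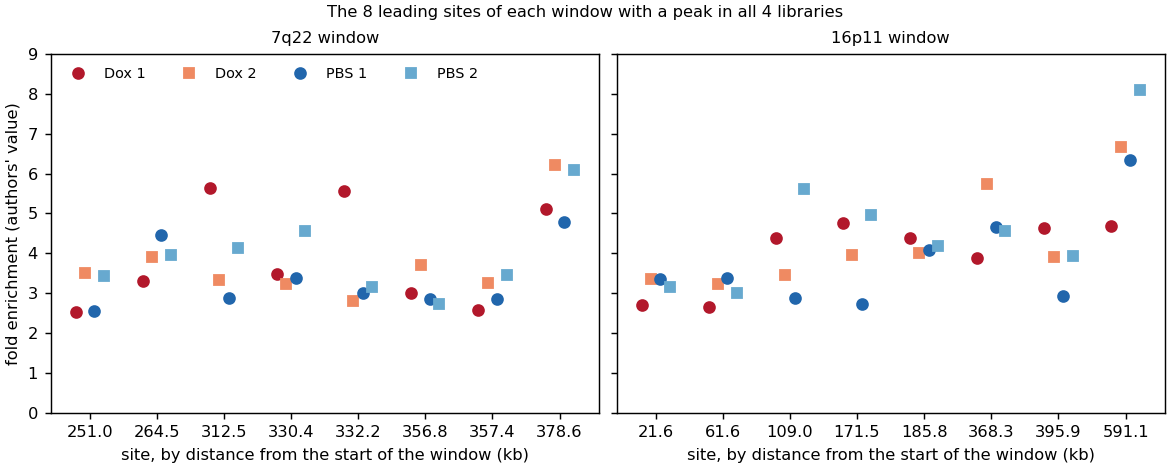
Fold enrichment (y axis, authors' value within each list) at the 8 leading sites per window with a peak in all 4 libraries, by distance from the window start in kb (x axis); points are libraries. Dox and PBS points interleave at most sites, and the highest value is 8.09 in PBS 2 at the last site of the 16p11 window.

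Dox and PBS were compared by the number of peaks, their share of the list, the occupied bins and the median percentile, each over 2 libraries against 2. At 7q22 both Dox libraries had more peaks than both PBS libraries, 99.0 ± 29.7 against 59.0 ± 17.0 (mean ± SD over 2 libraries each, exact permutation p = 0.333, the smallest possible). The excess was 73 peaks within replicate number 1 and 7 within number 2, and 19 without Dox replicate 1 against 61 without Dox replicate 2. When each list was cut to its 11304 peaks of smallest p, the libraries held 42, 53, 47 and 39 peaks, a difference of 4.5, and Dox and PBS overlapped. As a share of the list the Dox mean was 0.363% ± 0.150 and the PBS mean 0.362% ± 0.0755 (SD over 2 libraries each, exact permutation p = 1). Without Dox replicate 2 the difference in share was -0.105 percentage points and without PBS replicate 2 it was -0.0528. Dox libraries had 35 and 28 occupied bins and PBS libraries 21 and 24 (exact permutation p = 0.333, n = 2 each), and 20.5 against 20 on average at equal list length. The difference of the mean percentile was 4.72 (exact permutation p = 0.667, n = 2 each), and it was -0.287 without Dox replicate 1 and -0.541 without PBS replicate 2. It was 4.465 within number 1 and 4.97 within number 2. At equal list length it was 10.9, with percentiles still taken within the full lists. The cut by p leaves the PBS 1 list whole and shortens the others, Dox 1 most. This value is thus not on a like footing with the uncut difference.

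At 16p11 the conditions overlapped on every measure. Peaks numbered 119 ± 36.8 in Dox against 82.5 ± 30.4 in PBS (SD over 2 libraries each, exact permutation p = 0.667), with 84 more in Dox within number 1 and -11 within number 2. The difference was 10.5 without Dox replicate 1 and 62.5 without Dox replicate 2. At equal list length the libraries held 44, 59, 61 and 52 peaks and the difference turned to -5. The mean share of the list was 0.435% ± 0.175 in Dox against 0.496% ± 0.0615 in PBS (SD over 2 libraries each, exact permutation p = 1), and the difference of -0.0613 percentage points turned to 0.0627 without Dox replicate 1. In Dox 47 and 39 bins were occupied, in PBS 30 and 44 (exact permutation p = 0.667, n = 2 each). The difference of 6 bins turned to -1 without PBS replicate 1 and to -3 at equal list length. The mean percentile differed by 4.07 (exact permutation p = 0.667, n = 2 each), with 3.64 within number 1 and 4.50 within number 2. At equal list length it differed by 12.9, with percentiles still taken within the full lists. Here too the cut leaves PBS 1 whole and shortens the others, so the value is not on a like footing with the uncut difference. None of the 8 comparisons reached 0.05, which this design cannot reach. Adjusted over the 8 by Benjamini-Hochberg, the exact permutation p was 0.889 for 6 of them and 1 for the shares of the list.

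**Figure D5:**
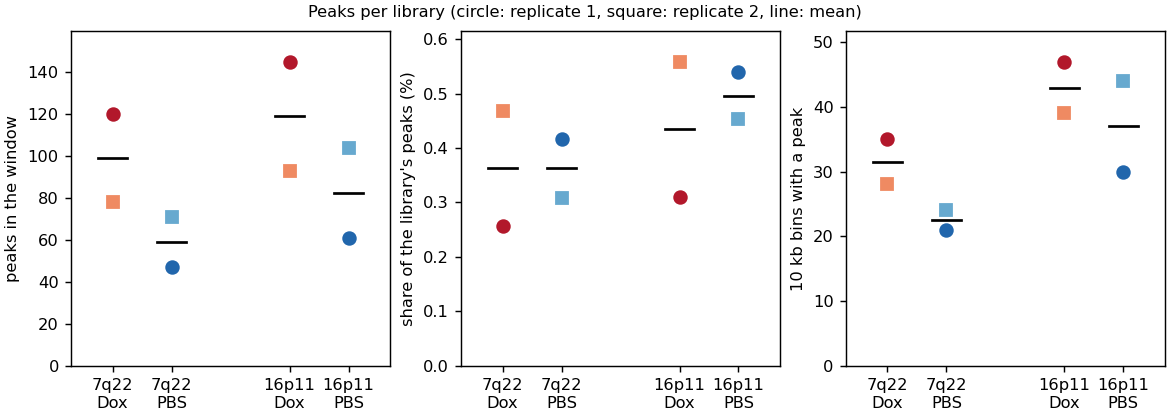
Peaks in the window, their share of the library's list in per cent, and 10 kb bins with a peak (y axes) for each window and condition; circles are replicate 1, squares replicate 2 and lines the mean of 2. Peak numbers of Dox and PBS do not overlap at 7q22 (78 and 120 against 47 and 71) and do at 16p11, and the shares overlap in both windows.

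Peak numbers of single bins were also set side by side, after the data were seen. At 7q22 6 of 37 occupied bins (16.2%) held more peaks in both Dox libraries than in either PBS library, and 0 the reverse. Over the genome these shares are 6.06% and 1.22% of occupied bins. A bin with a peak in only 1 library can be in neither class, at any list length. Such bins are 58.7% of occupied bins of the genome, but 9 of 37 at 7q22 and 5 of 50 at 16p11. The shares of the windows and of the genome are thus not on a like footing. The 6 bins lay between 102.17 and 102.32 Mb, with 9, 7, 3 and 5 peaks in Dox 1, Dox 2, PBS 1 and PBS 2 from 102.17 Mb and 5, 3, 1 and 1 from 102.19 Mb. At 16p11 5 of 50 bins (10%) had more peaks in both Dox libraries and 4 (8%) more in both PBS libraries. The largest of the latter was the last bin, from 31.19 to 31.2 Mb, with 2, 4, 5 and 7. The others were the bins from 30.64 Mb with 1, 2, 3 and 5, from 30.75 Mb with 4, 3, 5 and 5, and from 30.85 Mb with 0, 0, 2 and 1. With lists of equal length, 3 of 29 occupied bins at 7q22 (10.3%) and 2 of 46 at 16p11 (4.35%) had more peaks in both Dox libraries, against 4.33% of occupied bins of the genome. In the other direction there were 1 of 29 (3.45%) and 5 of 46 (10.9%), against 4.36%. The counts moved with list length and were not tested.

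Peaks at sites exclusive to a condition did not pass the q limit. Both Dox libraries and neither PBS library had a peak at 7 of 180 sites at 7q22 (3.89%) and 12 of 229 at 16p11 (5.24%), beside 3.11% of all sites. Both PBS libraries alone had a peak at 1 site at 7q22 (0.556%) and 5 at 16p11 (2.18%), beside 0.928%. No peak at any of these sites reached q of at most 0.05. A site with a peak in only 1 library cannot count here. Sites of that kind made up 60.6% at 7q22 and 64.6% at 16p11 but 72.5% over the series, so the shares are not on a like footing. The Dox site of smallest p at 7q22, from 102165693 to 102166050, had folds of 3.55 in Dox 1 and 2.51 in Dox 2. It begins just after the leading site from 102164471, where all 4 libraries had a peak. At 16p11 the Dox site of smallest p lay from 30710451 to 30710865, with 3.45 and 3.04. That site likewise begins just after a leading site, from 30709005, where all 4 libraries had a peak. The PBS site of smallest p, from 31198210 to 31198863, had 2.78 in PBS 1 and 4.11 in PBS 2. Of the 5 PBS sites at 16p11, 3 lay in the last bin, the others from 30672542 and 30905614. The single PBS site at 7q22, from 102142935 to 102143196, had 2.54 and 2.88.

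The authors' deposited table for each condition matches peaks of its replicates and gives each pair an irreproducible discovery rate (IDR), an estimate of the share of irreproducible pairs among those ranked as high. The authors' deposited tables list 38 Dox and 24 PBS pairs at 7q22, and 45 Dox and 38 PBS pairs at 16p11. An IDR of at most 0.05 was reached by 20 of the 38 Dox pairs at 7q22 (52.6%) and 18 of the 45 at 16p11 (40%), beside 27.5% of all Dox pairs in the authors' deposited table. For PBS it was reached by 2 of 24 (8.33%) and 4 of 38 (10.5%), beside 15.0% of all PBS pairs in the authors' deposited table. In the authors' deposited table both PBS pairs at 7q22 that reached it lie at the sites from 102212547 and 102278590, which also hold the Dox pairs of smallest IDR. The IDR is fitted to each condition's own lists, so the shares of the conditions were set side by side and not compared.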

How the data were processed

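The data were p53 ChIP-seq peak lists of 2 Dox and 2 PBS libraries of 293T cells, and input samples were not analysed here. BWA, MACS2 and hg19 are named per the submitters' processing notes, without roles; their versions and any filters were not given in the sources used here. In each library's list the authors deposited the fold enrichment as a ratio, and p-values and q-values as −log10. A table of matched pairs per condition, also deposited, holds −log10 p-values and, per the file headers, the IDR as a fraction. The column of summits holds chromosome coordinates.

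Peaks touching a window or a 10 kb bin by at least 1 bp were counted, and peaks of the 4 lists sharing 1 bp were merged into sites. Conditions were compared with two-sided exact permutation tests. Read depth is unknown. A replicate number stands for a passage, not for a stated pairing. The windows, lists and tests were chosen with earlier results of these data known. By rule, the text names bins in all 4 libraries, per window the 8 sites in all 4 libraries with the highest lowest percentile, sites with q of at most 0.05 in at least 2 libraries, and exclusive sites by smallest p, up to 10 per condition and window. The q limit was first a rounded −log10 value and was set to exactly 0.05 after counts had been seen, which changed no count in the windows. The flanks, tile ranks, summit ranges and counts of sites in 3 libraries were added after values had been seen. RefSeq tables on GRCh38.p14 gave gene names, their order and promoters; genes of the fixed lists could not be placed on hg19. The merging code was run on simulated lists (392 planted sites, 0 given a wrong pattern). Their peaks had equal width and their sites lay too far apart to merge, so this checks the code only. It does not show how merging performs in the windows, where median gaps between sites were 615 bp at 7q22 and 971 bp at 16p11. Alternatives were the q limit, equal list length, summit positions, other bins, another merging rule, the replicate block and leaving out each library. Versions were Python 3.11.15 with numpy 2.4.6, pandas 2.3.3, and for tests and plots scipy 1.17.1 and matplotlib 3.10.9.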

Additional observations from a re-analysis of the deposited data

Results flagged for a closer look

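For 4 measures the sign of Dox minus PBS differed between replicate numbers, which stand for passages 3 and 5. At 16p11 the libraries numbered 1 gave 84 peaks and those numbered 2 gave -11, and occupied bins gave 17 and -5. The share of the list at 16p11 gave -0.229 percentage points for number 1 and 0.106 for number 2. At 7q22 the share gave -0.159 for number 1 and 0.160 for number 2. Every one of these values compares a single Dox library with a single PBS library, so whether the numbers differ was not tested. The longest list, Dox 1 with 46658 peaks, and the shortest, PBS 1 with 11304, are both numbered 1. At equal list length the libraries numbered 1 held 44 peaks in Dox and 61 in PBS at 16p11, and those numbered 2 held 59 and 52.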

How the results depend on the processing

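Placing peaks by summit kept the direction of the differences in peaks, share and occupied bins. Shifting the bins by 5 kb and bins of 5 or 20 kb kept that of occupied bins. All of these kept the numbers of bins in all 4 libraries within 1.5 times. Their share of occupied bins, however, fell with smaller bins. At 7q22 it was 12 of 22 with bins of 20 kb, 18 of 37 with 10 kb and 20 of 64 with 5 kb. At 16p11 it was 20 of 28, 27 of 50 and 31 of 90. Limits that shortened the lists changed some directions and counts. At equal list length 16p11 had -5 peaks and -3 occupied bins in Dox minus PBS, and sites in all 4 libraries fell to 10 at 7q22 and 13 at 16p11. At q of at most 0.05 the share at 16p11 turned to 0.0617 percentage points, bins in all 4 libraries numbered 0 at 7q22 and 1 at 16p11, and sites in all 4 libraries 0 and 1. These settings test fewer peaks by construction. Leaving out each library gave differences in share from -0.105 to 0.106 at 7q22 and from -0.185 to 0.0627 at 16p11, in percentile from -0.541 to 9.98 at 7q22 and from 0.00598 to 8.14 at 16p11, in occupied bins from 5.5 to 12.5 and from -1 to 13, and in peaks from 19 to 61 and from 10.5 to 62.5. With 1 library left in a condition these are values with no test. With the replicate number as a block the differences stay, by construction, at 40 and 36.5 peaks. The exact permutation p was then 0.5 at 7q22, the smallest that 2 pairs allow, and 1 at 16p11. No comparison could reach 0.05 with or without the block, so the part of the block cannot be judged by calls. The deviations of same-numbered libraries had a correlation of 0.0743 over 26031 sites of the series at equal list length. In the windows it was 0.0834 over 106 sites at 7q22 and 0.0151 over 112 at 16p11. Only sites with a peak in at least 1 library enter these values, which are descriptions. Peaks in repeated sequence were not removed, and depth is unknown, so peaks missing from a list cannot be read as absent. The equal-length counts of bins that differ between conditions were added after the data were seen.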

Other observations

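Sites with a peak in 3 libraries differed in which library lacked the peak. It was most often PBS 1, the shortest list, at 9 of 22 such sites at 7q22 and 10 of 21 at 16p11. These are 40.9% and 47.6%, beside 51.3% over the series. Dox 2 lacked it at 3 and 5 sites (13.6% and 23.8%), beside 29.0%. Dox 1, the longest list, was the one without a peak at 5 of 22 such sites at 7q22 and 6 of 21 at 16p11 (22.7% and 28.6%), beside 9.2% of the 4772 such sites of the series. PBS 2 was the one without a peak at 5 of 22 sites at 7q22 and 0 of 21 at 16p11, beside 10.5%. Sites in Dox 2 and PBS 2 alone, the libraries from passage 5, made up 6.11% of sites at 7q22 and 3.06% at 16p11, beside 2.4% of all sites. Those in Dox 1 and PBS 1 alone, from passage 3, made up 2.22% and 2.18%, beside 2.29%. Across passages, sites in Dox 1 and PBS 2 alone made up 5% and 3.49%, beside 4.96%. Sites in Dox 2 and PBS 1 alone made up 0% and 0.873%, beside 0.365%. Sites with a peak in only 1 library are a smaller share in the windows than over the series, so these shares are not on a like footing. The part of passage was not tested.

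The starts of the identical SPDYE2 and SPDYE2B sequences are 99093 bp apart on GRCh38.p14, and the spacing on hg19 was not used here. Of the 7q22 peaks with room for that spacing inside the window, 22.5% in Dox 1, 15.1% in Dox 2, 19.6% in PBS 1 and 22.1% in PBS 2 had a peak of the same library at that distance. The same count at 16p11 gave 16.9%, 11.5%, 8.93% and 14.1%. Such a count depends on how closely the peaks are packed. At 7q22 a stretch of 270 kb held at least 90.8% of each library's peaks. At 16p11 the first of the longest stretches, of 190 kb, held 35.2% to 46.2%, so the windows are not on a like footing. Among sites with a peak in all 4 libraries, 2 pairs at 7q22 and 4 at 16p11 had the spacing (17 and 20 sites had room for it), and 2 of the 4 pairs at 16p11 share the site from 30885952. The sites of one 7q22 pair were those from 102179645, with folds of 4.50, 2.71, 3.29 and 4.81, and from 102278590, with 5.11, 6.21, 4.80 and 6.10 in Dox 1, Dox 2, PBS 1 and PBS 2. Other spacings had been looked at before this one and are not reported. The part of the duplication in these values was not tested.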
